A study of Mus musculus with 4 samples.

Results

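The nuclear-encoded subunits of respiratory complexes III and IV and of ATP synthase, together with cytochrome c, were followed in B16-F10 mouse melanoma cells after stimulation of the receptor TIM-3. Members were all non-control probes whose gene name begins with Uqcr, with Cox and a digit from 4 to 8, or with Atp5, or is Cycs or Cyc1. This gave 59 probes of 43 genes among the 41174 probes of the array, which carry 27962 names. All 43 genes matched a RefSeq entry by accession. Tests were run on probes that stood well above background, in Cy5 or in Cy3, on 3 or 4 of the arrays, which left 56 member probes of 41 genes and 26545 probes in all. Only 1 Cox5a probe and the single probes of Cox8b and Cox8c fell below this limit, in both channels of all 4 arrays.

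Each of the 4 arrays set cells given a polyclonal agonist antibody from goat to mouse TIM3 (Cy5) against cells of equal passage given unspecific goat IgG (Cy3), both at 15 ug/ml for 2 h. The 4 arrays used passages 14, 16, 18 and 19 of this 1 cell line and are called arrays 1 to 4 in that order, so p-values measure the spread between passages. The antibody's dose, time and agonist kind come from treatment labels of passages 14, 16 and 19, and for passage 18 the labels used here name only the antibody. No array had the dyes exchanged, and an effect of the antibody and a dye effect of a probe cannot be told apart.

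Complex III passes electrons from ubiquinol to cytochrome c, complex IV passes them from cytochrome c to oxygen, and both pump protons across the inner mitochondrial membrane. ATP synthase lets the protons flow back through the ring of its membrane part Fo, which turns a shaft inside the catalytic head F1. Most subunits are encoded in the nucleus, and a few catalytic and membrane subunits are encoded in mitochondrial DNA.

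Values below are log2 ratios of anti-TIM3 over IgG, and a positive ratio means a higher signal after anti-TIM3. Of the 56 tested member probes, 19 rose, 2 fell and 35 did not pass limma at an adjusted p of 0.05. Over all tested probes 14.2% rose and 13.6% fell, and 27.8% passed in either direction, while 33.9% of the member probes rose, 3.57% fell and 37.5% passed. The median log2 ratio was 0.09 over the member probes and 0.01 over all tested probes. By complex, 4 of 11 probes of complex III rose, as did 4 of 15 of complex IV and 11 of 22 of ATP synthase, and both probes that fell were of ATP synthase. None of the 3 cytochrome c probes passed limma after adjustment, and 1 did at an unadjusted p of 0.05. RNA of each culture was taken from all its cells, so a change in some cells and a smaller change in every cell cannot be told apart.

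**Figure D1:**
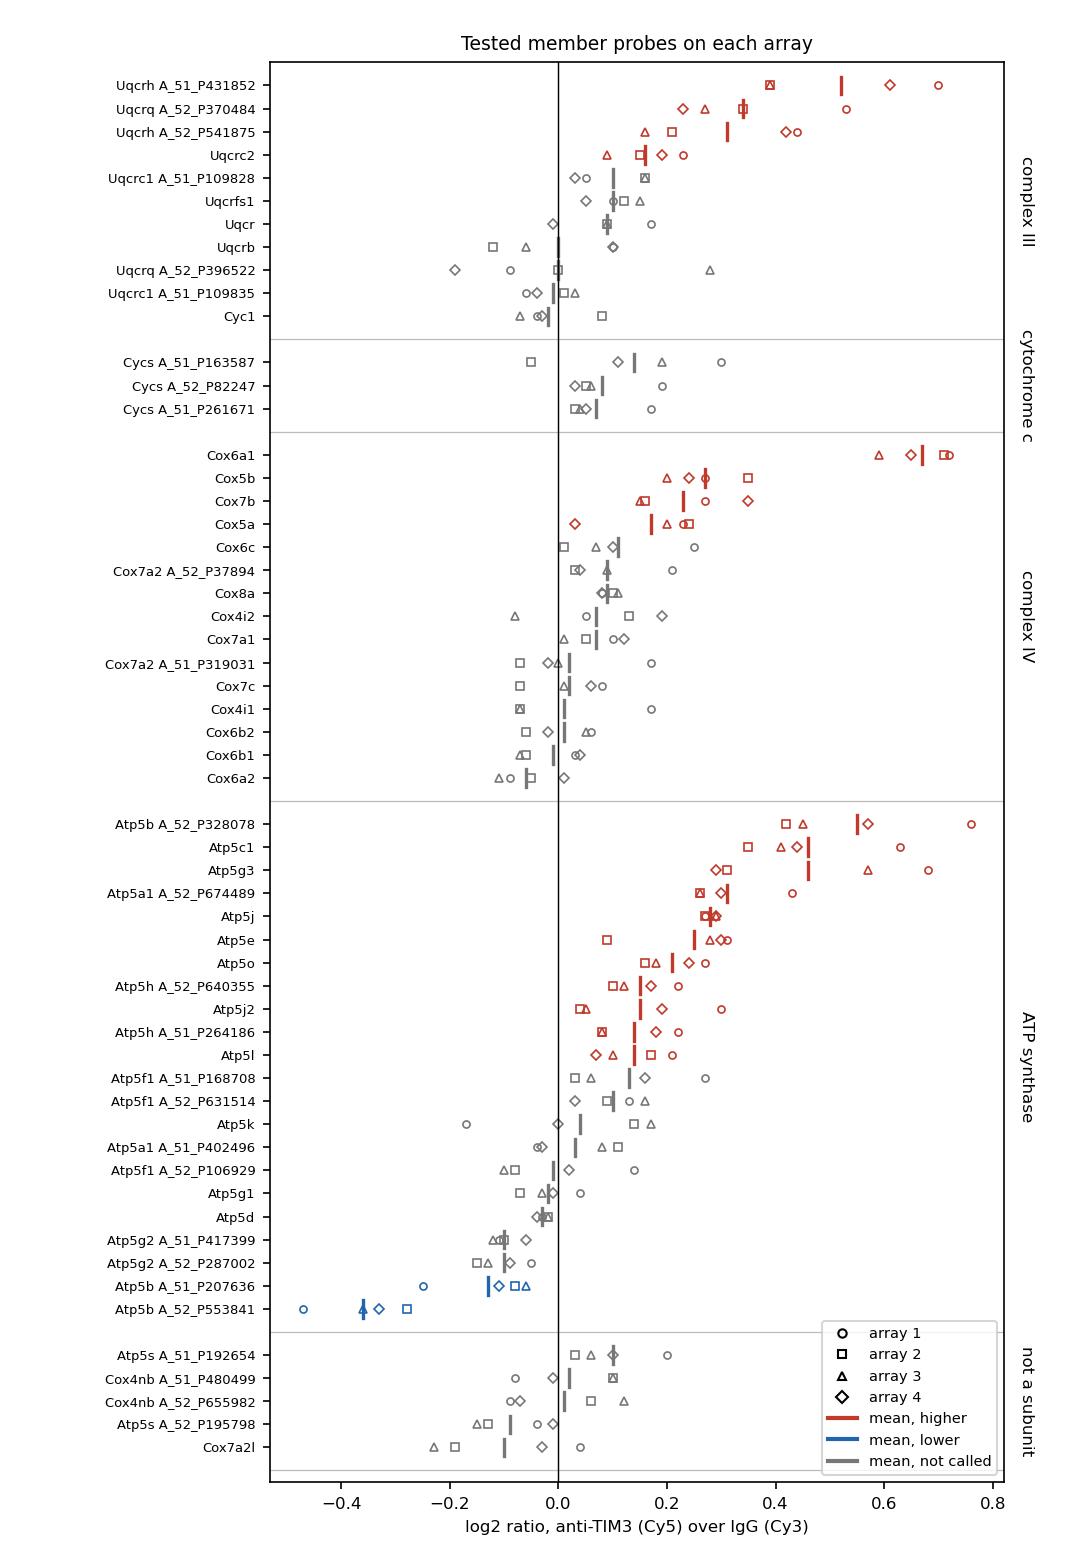
Log2 ratios of anti-TIM3 (Cy5) over IgG (Cy3) for the 56 tested member probes, with 1 open symbol per array and a bar at the mean, ordered by mean within each complex. Red marks the 19 probes that rose, blue the 2 that fell and grey the 35 that did not pass limma at an adjusted p of 0.05; Cox6a1 stands highest at 0.67 and a probe of Atp5b lowest at -0.36.

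The member probes were bright, and probes over 15 in mean log2 intensity leaned above 0 across the whole array. The median log2 ratio of all tested probes was 0.10 from 15 to 16. It was 0.01 up to 12, -0.02 from 12 to 13, -0.04 from 13 to 14 and -0.02 from 14 to 15. The median mean log2 intensity of the member probes was 14.8, against 8.9 over all tested probes. All 9 member probes with a mean log2 intensity over 16 rose, and so did 89.6% of the 182 probes in that range. Both sets had a median log2 ratio of 0.34. Between 15 and 16, 7 of 15 member probes (46.7%) rose, against 41.9% of all probes. Up to 15, 3 of 32 member probes (9.38%) rose, against 13.3% of all probes, and 1 (3.12%) fell, against 13.8%. Within the last range, all 3 rising members lay between 14 and 15, where 3 of 12 members (25%) rose, against 15.2% of all probes, and none fell in limma after adjustment, with 1 at an unadjusted p of 0.05, against 19.6% of all probes. Above 15 the share of members that rose lay near that of all probes, so the excess over the whole array is not read as a result about the members. The share that fell was below that of all probes up to 15, and this difference was not tested. Across the 56 member probes, the ratio and the mean log2 intensity had a Pearson correlation of 0.46 and a Spearman correlation of 0.71, given as a description, since the probes share the same 4 arrays. With the deposited processed signals these were 0.12 and 0.19. Over all tested probes the same correlations were -0.03 and -0.10, and both were -0.19 with the deposited processed signals.

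**Figure D2:**
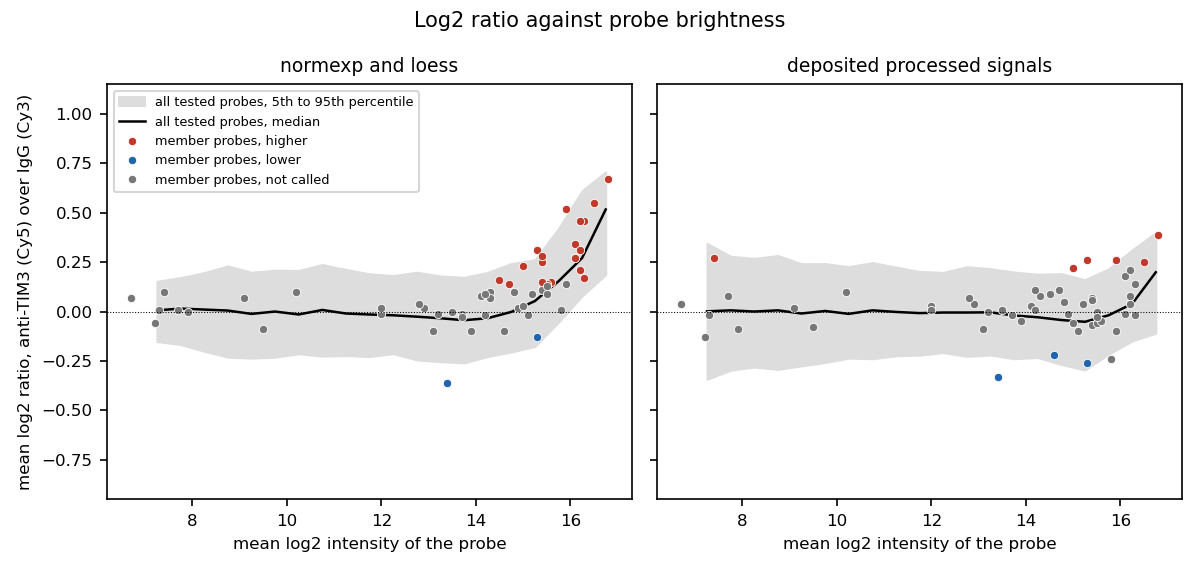
Mean log2 ratio over 4 arrays against mean log2 intensity for the member probes (points) and for all tested probes (line, median; grey band, 5th to 95th percentile, in steps of 0.5 in log2 intensity), from the background-corrected and loess-normalised signals (left) and the deposited processed signals (right). Above 16 the whole array turns upward on the left, and the 9 member probes there share the median of 0.34.

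The split between higher and lower members depended on the signals used. From the deposited processed signals, 6 member probes were higher and 3 lower, where 10.8% of all probes were higher and 8.97% lower, and 4 probes that rose (Cox5a, Cox5b and both of Atp5h) had means below 0. With a smooth trend on intensity removed per array, 12 were higher and 4 lower, against 14.5% and 14.6% of all probes. With trends on intensity and on probe base counts removed, 14 were higher and 3 lower, against 12.6% and 12.8%. Of the 21 probes called, 7 kept their call in the deposited signals, 14 with the intensity trend removed and 14 with both trends removed. In all, 6 kept their call and direction in these 3 settings, with an offset of 10 in the background correction and with each array left out in turn. They were Cox6a1, Cox7b, both Uqcrh probes, and the highest and the lowest of the 3 Atp5b probes.

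In complex III, both probes of Uqcrh rose, the gene of the acidic hinge protein that helps cytochrome c1 meet cytochrome c. Its probe A_51_P431852 had log2 ratios of 0.70, 0.39, 0.39 and 0.61 on arrays 1 to 4, with a mean of 0.52 ± 0.16 (SD, n = 4, adjusted p = 0.00073 in limma). The other probe, A_52_P541875, had 0.44, 0.21, 0.16 and 0.42, with a mean of 0.31 ± 0.14 (SD, n = 4, adjusted p = 0.00393 in limma). Both probes were above 0 on every array and higher on arrays 1 and 4 than on arrays 2 and 3. They lie 2788 bases apart on chromosome 4 of the mm7 build, at chr4:115443478-115443537 and chr4:115446326-115446385 on the minus strand, and share no stretch of 12 or more bases. In processed signal, A_51_P431852 read 64409, 48292, 49413 and 52810 in anti-TIM3 cells, against 49683, 43959, 44662 and 40330 in IgG cells of the same arrays, a higher value after anti-TIM3 in each pair. The sequence of the second Uqcrh probe is given because its ratio, like that of the first, passed with either kind of signal. No stretch of the sequence is marked.
Uqcrh A_52_P541875: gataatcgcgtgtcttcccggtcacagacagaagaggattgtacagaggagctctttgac

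Uqcrq encodes a small subunit next to cytochrome b. Its bright probe A_52_P370484 had log2 ratios of 0.53, 0.34, 0.27 and 0.23 (mean 0.34 ± 0.13, SD, n = 4, adjusted p = 0.00241 in limma), and 0.18 in the deposited signals. Its second probe, 921 bases away and with a mean log2 intensity of 7.9, had -0.09, 0.00, 0.28 and -0.19 and did not pass. Uqcrc2, the core protein 2 gene, rose by 0.16 ± 0.06 (SD, n = 4, adjusted p = 0.0125), a call that ended without array 4 (0.16, adjusted p = 0.0504), and its deposited mean was 0.09. The other members of complex III did not pass. Both Uqcrc1 probes (core protein 1) had means of 0.10 and -0.01, Uqcrfs1 (the Rieske iron-sulfur protein) 0.10, Uqcr (named Uqcr11 in RefSeq) 0.09 and Uqcrb 0.00. Cyc1, which encodes cytochrome c1, had -0.04, 0.08, -0.07 and -0.03, on both sides of 0 (mean -0.02 ± 0.07, SD, n = 4).

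Cytochrome c, the soluble carrier between complexes III and IV that also triggers caspases once it leaves mitochondria, was measured by 3 Cycs probes. Probe A_51_P163587 had log2 ratios of 0.30, -0.05, 0.19 and 0.11 (mean 0.14 ± 0.15, SD, n = 4, adjusted p = 0.0782 in limma), and passed when array 2 was left out (0.20, adjusted p = 0.0229). Its direction turned in the deposited signals (-0.10), with the intensity trend removed (-0.03) and with both trends removed (-0.04). Probe A_52_P82247 had 0.19, 0.05, 0.06 and 0.03 with an adjusted p of 0.137. Probe A_51_P261671 had 0.17, 0.03, 0.04 and 0.05 with an adjusted p of 0.176. The last 2 share 40 of their 60 bases and are not independent readings. Array 1 was the highest of the 4 for all 3 probes.

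In complex IV, Cox6a1, the widely expressed form of subunit VIa, had the largest ratio of all members. It had 0.72, 0.71, 0.59 and 0.65, a narrow range (mean 0.67 ± 0.06, SD, n = 4, adjusted p = 6.52e-05 in limma). In processed signal it read 103714, 85889, 85082 and 92595 in anti-TIM3 cells, against 82002, 62050, 66234 and 70516 in IgG cells, a higher value in each pair. It was also the brightest member, with a mean log2 intensity of 16.8, and its ratio was 0.39 with the intensity trend removed and 0.39 in the deposited signals, both past the threshold (adjusted p = 0.0144 for the deposited signals). All tested probes from 16.5 to 17 had a median of 0.52 and a 95th percentile of 0.71. In the deposited signals these were 0.20 and 0.40, so Cox6a1 lay within the range of probes as bright in both.

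Cox7b, a small subunit of widely expressed type, had 0.27, 0.16, 0.15 and 0.35 (mean 0.23 ± 0.10, SD, n = 4, adjusted p = 0.00557 in limma). All 4 arrays were above 0, and in the deposited signals the mean was 0.22. Cox5b, a nuclear subunit of the matrix side, had a mean of 0.27 ± 0.06 (SD, n = 4, adjusted p = 0.00193 in limma), and its deposited ratio was -0.01. Cox5a, another subunit of the matrix side, had a mean of 0.17 ± 0.10 (SD, n = 4, adjusted p = 0.0174 in limma), lost the call without array 1 (0.16, adjusted p = 0.0636) or array 2 (0.15, adjusted p = 0.0664), and stood at -0.02 in the deposited signals. The direction of Cox5a and Cox5b thus turned with the signals used.

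Complex IV has pairs of genes for the same subunit, of which one is widely expressed and the other is known from heart and skeletal muscle, lung or testis. Of the widely expressed members of such pairs 1 of 6 tested probes rose, that of Cox6a1, and of the tissue-restricted forms none of 4 passed limma, with or without adjustment. The other 3 rising probes of complex IV belong to Cox5a, Cox5b and Cox7b, which have no such partner among the members. Among the restricted forms, Cox8b (muscle) and Cox8c (testis) were not well above background in either channel on any array. Cox4i2 (lung) was well above background in anti-TIM3 cells on 3 arrays and in IgG cells on 0, at the dim end of the array. Its ratios were 0.05, 0.13, -0.08 and 0.19. On every array more spots as a whole were well above background in Cy5 than in Cy3. Cox6a2 (muscle) had -0.09, -0.05, -0.11 and 0.01, Cox6b2 (testis) had 0.06, -0.06, 0.05 and -0.02, and Cox7a1 (muscle) had 0.10, 0.05, 0.01 and 0.12. Each of these 3 was well above background on all 4 arrays in both channels, and none passed (adjusted p of 0.227, 0.894 and 0.175 in limma). Cox7a1, above 0 on all 4 arrays, was called higher with both trends removed (0.13, adjusted p = 0.0377 in limma).

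Their widely expressed partners other than Cox6a1 did not pass either. Cox4i1 had 0.17, -0.07 and -0.07 on arrays 1 to 3, and its spot on array 4 was left out as an outlier. Cox6b1 had 0.03, -0.06, -0.07 and 0.04. Cox8a had 0.08, 0.10, 0.11 and 0.08, above 0 on all arrays with an adjusted p of 0.0687 in limma. For Cox7a2, probe A_51_P319031 had 0.17, -0.07, 0.00 and -0.02. The other Cox7a2 probe, A_52_P37894, shares 48 bases with it and had 0.21, 0.03, 0.09 and 0.04. Of the remaining subunits, Cox6c averaged 0.11 and Cox7c 0.02, and neither passed.

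In ATP synthase, the catalytic beta subunit gene Atp5b was the only member gene with probes called in both directions. Probe A_52_P328078 had log2 ratios of 0.76, 0.42, 0.45 and 0.57 (mean 0.55 ± 0.15, SD, n = 4, adjusted p = 0.000575 in limma). Probe A_51_P207636 had -0.25, -0.08, -0.06 and -0.11 (mean -0.13 ± 0.08, SD, n = 4, adjusted p = 0.0433 in limma). Probe A_52_P553841 had -0.47, -0.28, -0.36 and -0.33 (mean -0.36 ± 0.08, SD, n = 4, adjusted p = 0.000806 in limma). On each of the 4 arrays the first probe was above 0 and the other two were below it, with no overlap. The call of A_51_P207636 ended whenever any of the 4 arrays was left out, with means from -0.15 to -0.09 and adjusted p from 0.0567 to 0.11.

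The 3 probes lie in order along the plus strand of chromosome 10 in the mm7 build. The lowest, A_52_P553841, spans chr10:127585810-127586488, 679 bases for a probe of 60 bases, so its coordinates hold an intron. A_51_P207636 lies 412 bases further on, at chr10:127586901-127586960. The rising probe A_52_P328078 lies another 4626 bases on, at chr10:127591587-127591646, nearest the 3′ end. The log2 ratio was higher for each probe further along the gene, and the mean log2 intensity of the probes was 13.4, 15.3 and 16.5 in the same order. The sequences of the 2 falling probes are shown because their ratios oppose that of the third, and no stretch is marked.
Atp5b A_52_P553841: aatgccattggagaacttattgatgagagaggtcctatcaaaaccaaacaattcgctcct
Atp5b A_51_P207636: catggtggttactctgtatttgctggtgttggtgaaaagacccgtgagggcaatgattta

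In processed signal, A_52_P328078 read 81670, 69108, 73383 and 75766 in anti-TIM3 cells, against 61667, 62588, 65933 and 62218 in IgG cells. A_52_P553841 read 9940, 8221, 8055 and 7950 in anti-TIM3 cells, against 13586, 9683, 10099 and 9842 in IgG cells. A_51_P207636 read 37160, 29458, 31742 and 29421 in anti-TIM3 cells, against 51347, 33226, 35589 and 34437 in IgG cells. The opposite directions were therefore present in the deposited signals too, with mean log2 ratios of 0.25, -0.33 and -0.26 in this order of probes. They also held with both trends removed, at 0.25, -0.34 and -0.21. With median centring as the sole normalisation, where all probes had a median of 0.15, the 3 stood at 1.26, 0.08 and 0.47, so the 2 lower probes turned sign, and none of the 3 passed limma.

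**Figure D3:**
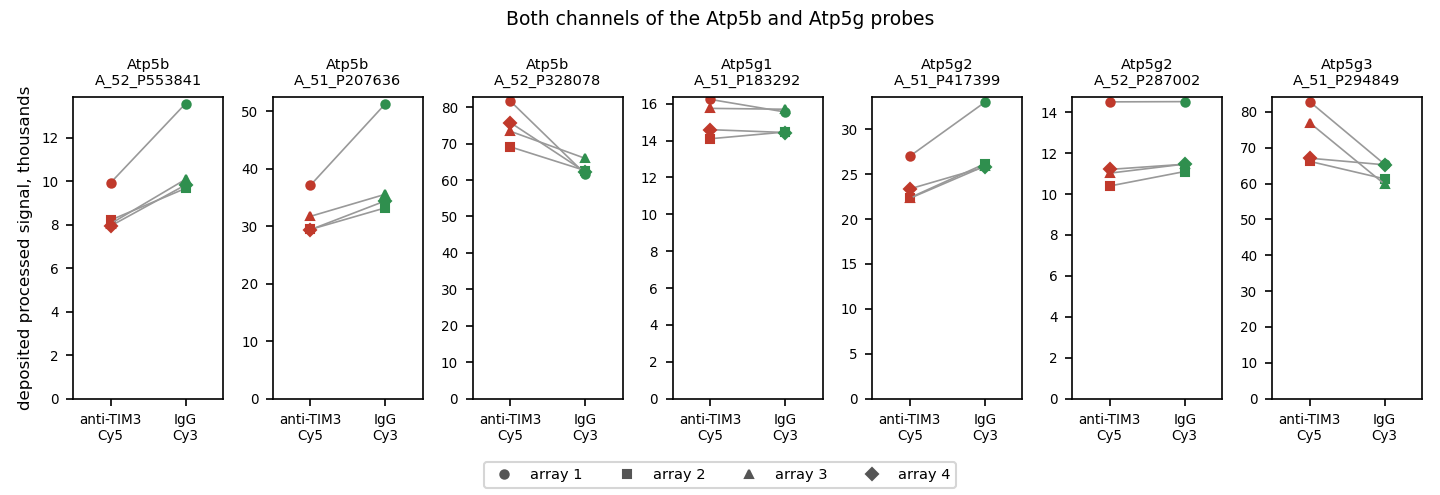
Deposited processed signal in anti-TIM3 cells (Cy5, red, left) and IgG cells (Cy3, green, right) for the 3 Atp5b probes, in order along the gene, and for the probes of Atp5g1, Atp5g2 and Atp5g3, with lines joining the channels of an array and each axis starting at 0. In these signals the first Atp5b probe was lower after anti-TIM3 on all 4 arrays and the last higher; Atp5g3 did not pass limma (0.21, adjusted p = 0.088) and Atp5g2 A_51_P417399 was called lower (-0.22, adjusted p = 0.0272), whereas with the loess-normalised signals Atp5g3 rose and neither Atp5g2 probe passed.

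The other parts of the F1 head were measured by Atp5a1 (alpha), Atp5c1 (gamma, the shaft), Atp5d (delta) and Atp5e (epsilon). Atp5c1 had 0.63, 0.35, 0.41 and 0.44 (mean 0.46 ± 0.12, SD, n = 4, adjusted p = 0.00071 in limma), and 0.14 in the deposited signals. The Atp5a1 probe A_52_P674489 had 0.43, 0.26, 0.26 and 0.30 (mean 0.31 ± 0.08, SD, n = 4, adjusted p = 0.00142 in limma) and 0.08 in the deposited signals, while its neighbour A_51_P402496, 192 bases further on, had -0.04, 0.11, 0.08 and -0.03 and did not pass. Atp5e rose by 0.25 ± 0.10 (SD, n = 4, adjusted p = 0.00501 in limma) and stood at 0.06 in the deposited signals. Atp5d had -0.03 ± 0.01 (SD, n = 4), with a range from -0.04 to -0.02, and did not pass. Within the head, 4 of 8 probes rose and 2 fell.

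The ring of Fo is built from subunit c, and Atp5g1, Atp5g2 and Atp5g3 encode the same mature subunit behind different import sequences. Atp5g3 had 0.68, 0.31, 0.57 and 0.29 (mean 0.46 ± 0.19, SD, n = 4, adjusted p = 0.00187 in limma). Its call ended in the deposited signals (0.21, adjusted p = 0.088) and held at 0.25 with the intensity trend removed and 0.20 with both trends removed. Atp5g1 had 0.04, -0.07, -0.03 and -0.01 (mean -0.02 ± 0.04, SD, n = 4). The Atp5g2 probe A_51_P417399 had -0.11, -0.10, -0.12 and -0.06, and A_52_P287002 had -0.05, -0.15, -0.13 and -0.09. Both Atp5g2 probes were below 0 on every array and missed the threshold, with adjusted p of 0.0528 and 0.0524 in limma. A_51_P417399 was called lower in the deposited signals (-0.22, adjusted p = 0.0272) and with the intensity trend removed (-0.15). On every array the ratio of Atp5g3 was above those of the other genes, and the difference itself was not tested. The brightness of the probes moved with it, at a mean log2 intensity of 16.2 for Atp5g3, 14.2 for Atp5g1 and 14.6 and 13.9 for Atp5g2. With the intensity trend removed, the ratios were 0.25 for Atp5g3, -0.03 for Atp5g1 and -0.15 and -0.10 for Atp5g2.

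The Atp5g1 probe and 1 of the Atp5g2 probes share their longest identical stretch among probes of different member genes, 14 bases, which is in capitals here. They are shown to give how far probes of 2 genes for 1 protein are alike.
Atp5g1 A_51_P183292: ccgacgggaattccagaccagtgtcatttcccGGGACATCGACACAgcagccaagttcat
Atp5g2 A_52_P287002: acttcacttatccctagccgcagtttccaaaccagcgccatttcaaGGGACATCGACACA

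Of the stalk that holds the head still, Atp5j, Atp5o and Atp5h rose. Atp5j (coupling factor 6) had 0.27, 0.27, 0.29 and 0.29, the tightest of the rising probes (mean 0.28 ± 0.01, SD, n = 4, adjusted p = 0.001 in limma), and 0.07 in the deposited signals. Atp5o (the oligomycin sensitivity protein, at the top of the stalk) rose by 0.21 ± 0.05 (SD, n = 4, adjusted p = 0.00405 in limma), and stood at 0.04 in the deposited signals. Atp5h (subunit d) rose on both probes, by 0.15 ± 0.06 and 0.14 ± 0.07 (SD, n = 4 each, adjusted p of 0.0159 and 0.0283 in limma), and turned sign in the deposited signals (-0.05 and -0.03). The Atp5h calls ended without array 4 (0.15 and 0.12, adjusted p of 0.058 and 0.10) and, for A_51_P264186, without array 1 (0.11, adjusted p = 0.0821). Atp5f1 (subunit b, Atp5pb in RefSeq) had 3 probes at 0.13, -0.01 and 0.10, of which none passed.

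The 2 Atp5h probes overlap by 20 bases, in capitals here, so they are not independent readings.
Atp5h A_52_P640355: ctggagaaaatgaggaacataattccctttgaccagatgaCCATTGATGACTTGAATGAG
Atp5h A_51_P264186: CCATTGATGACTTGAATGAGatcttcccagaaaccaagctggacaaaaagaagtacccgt

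Of the small membrane subunits, Atp5j2 (subunit f) had a mean of 0.15 ± 0.12 (SD, n = 4, adjusted p = 0.0493 in limma) and lost the call without array 1 (0.09) or array 4 (0.13), with 0.06 in the deposited signals. Atp5l (subunit g) had 0.14 ± 0.06 (SD, n = 4, adjusted p = 0.0263 in limma) and lost it without array 1 (0.11), array 2 (0.13) or array 3 (0.15), with 0.11 in the deposited signals. Atp5k (subunit e) ran from -0.17 to 0.17 and did not pass. Of the stalk and Fo together, 7 of 14 probes rose and none fell in limma after adjustment, with 9 higher and 2 lower at an unadjusted p of 0.05.

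The name rule also took 3 genes whose products are not subunits of these complexes, and none of their 5 probes passed limma, with 1 higher and 1 lower at an unadjusted p of 0.05. Cox7a2l, a factor that joins complexes III and IV, averaged -0.10 ± 0.13 (SD, n = 4). Cox4nb, named Emc8 in RefSeq and the neighbour of Cox4i1, had 0.02 and 0.01. Atp5s, named Dmac2l in RefSeq, had 0.10 and -0.09.

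**Figure D4:**
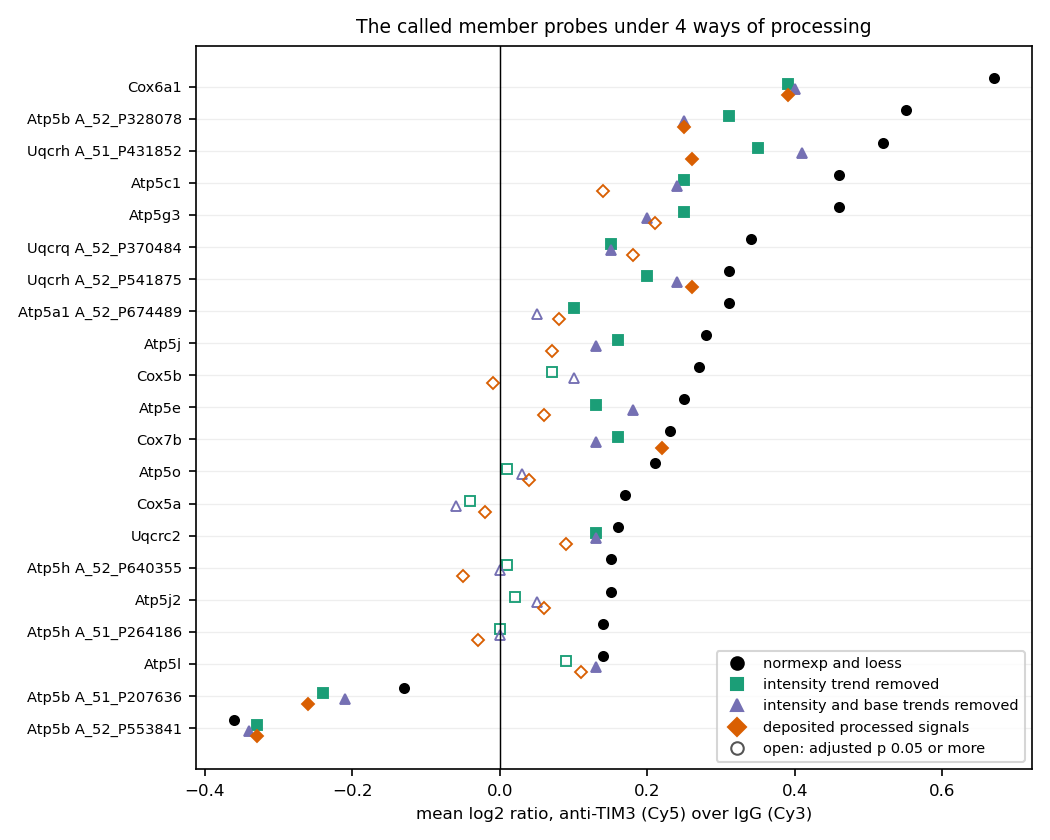
Mean log2 ratio of anti-TIM3 over IgG for the 21 called member probes under 4 ways of processing, with filled symbols where the adjusted p was below 0.05. Black circles (normexp and loess) lie furthest right for most rising probes; both Uqcrh probes, Cox6a1, Cox7b and all 3 Atp5b probes stay filled in all 4.

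Array 1 stood above the others for the members. It held the highest ratio for 31 member probes, or 55.4% of those measured on it, against 17.6% of all tested probes. The median over member probes was 0.17 on array 1, 0.07 on array 2, 0.08 on array 3 and 0.05 on array 4, while over all probes it lay between -0.02 and 0.02. Correlations between arrays over the member probes ran from 0.746 to 0.907, and over all tested probes from 0.524 to 0.746, given as descriptions. None of these comparisons with all probes was matched for brightness, and the median mean log2 intensity was 14.8 for members against 8.9. They are therefore not read as traits of the members. With 1 array left out at a time, 15 to 18 member probes rose. For each marker, the highest count of arrays over its probes was taken in each channel, so the channels may rest on different probes. All 7 melanocyte markers examined were well above background on each array in both channels. So were 2 of 4 T cell markers (Cd3e and Cd4), 1 of 4 of macrophages (Cd68), 2 of 4 of fibroblasts (Col1a1 and Col1a2) and 0 of 4 of endothelium. Cd3g, Emr1, Itgam, Dcn and Pecam1 were so on no array. Cd8a and Tek were well above background on 4 arrays in anti-TIM3 cells and on 0 in IgG cells, Csf1r on 3 and 0, Kdr on 2 and 0, Pdgfra on 3 and 1, and Cdh5 on 0 and 1. Over the whole array, more spots were well above background in Cy5 (25703 to 28400 per array) than in Cy3 (21151 to 22086). Detection in Cy5 alone is therefore not read as a result about these markers. The part of these markers in the ratios was not tested.

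Promoters of the members, from 250 bases before to 50 after the start in RefSeq (GRCm38.p6), were searched on both strands for 3 sequences known from respiratory genes. For 32 member genes 35 promoters were listed. The palindrome CGCATGCG, the core of sites for NRF1, was in 8 of 35 (22.9%; Cox6a1, Cycs, Uqcr, Uqcrc1, Atp5g2, Atp5j, Atp5k and Atp5l), against 1.87% of all 32851 promoters. CCGGAAGT, a core of sites for ETS factors such as GABP, was in 4 (11.4%; Uqcrh, Uqcr, Atp5h and Cox8a), against 3.89% of all. AAGATGGCG, of YY1, was in 2 (5.71%; Atp5j and Atp5j2), against 1.40% of all. No match overlapped another. Of the 8 genes with CGCATGCG, Cox6a1, Atp5j and Atp5l had a probe that rose and the other 5 had none. Of the 4 with CCGGAAGT, Uqcrh and Atp5h did, as did both genes with AAGATGGCG. These are counts of genes with any rising probe, whereas the 33.9% of members that rose is a share of probes, so they cannot be compared directly. A link between the sequences and the ratios was not tested. Cox6a1, Cox7b, Uqcrh and Atp5b had probes that kept their calls in the settings listed earlier. Among the promoters listed, no match was found for Cox7b or Atp5b. The windows of Cox6a1 and Uqcrh are shown, with the match in capitals, on the minus strand of GRCm38.p6 at chr5:115349097-115349134 and chr4:116075071-116075096.
Cox6a1: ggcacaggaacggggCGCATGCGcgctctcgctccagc
Uqcrh: cgaggagtatgccgcACTTCCGGcca

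Genes around these complexes were described from lists of 66 genes, of which 44 were found on the array by name, with 82 probes. Of the 76 tested probes, 14 rose and 10 fell, and their median was -0.01 on the log2 scale. This is 18.4% higher and 13.2% lower, or 31.6% in either direction, beside 14.2%, 13.6% and 27.8% of all probes. The 6 subunits encoded in mitochondrial DNA were not matched by name and are not analysed here.

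In complex II, which feeds electrons from succinate into the chain and pumps no protons, 3 of 5 tested probes fell and none rose in limma, with or without adjustment. Sdhc, a membrane anchor, had log2 ratios of -0.21, -0.26, -0.19 and -0.19 (mean -0.21 ± 0.03, SD, n = 4, adjusted p = 0.00322 in limma). Sdhd, the other anchor, had -0.25, -0.21, -0.21 and -0.13 (mean -0.20 ± 0.05, SD, n = 4, adjusted p = 0.00496 in limma). Both were below 0 on all arrays and were also lower in the deposited signals, at -0.21 and -0.30, but stood at 0.18 and 0.40, above 0, when median centring was the sole normalisation. Of Sdha, the flavoprotein, probe A_52_P109503 fell by 0.27 ± 0.20 (SD, n = 4, adjusted p = 0.0169 in limma), a call that ended without array 1 (-0.19) or array 4 (-0.24) and a sign that turned under median centring (0.09), and its other probe stood at 0.01. The median of all 5 probes was -0.20.

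Of the carriers and pores that exchange ATP, ADP and phosphate, 3 of 11 probes rose and none fell in limma after adjustment, with 6 higher and 1 lower at an unadjusted p of 0.05. Slc25a5, an exchanger of ADP for ATP, had 0.63, 0.60, 0.61 and 0.43 (mean 0.57 ± 0.09, SD, n = 4, adjusted p = 0.000166 in limma). Slc25a4, its heart and muscle form, had 0.57, 0.46, 0.47 and 0.50 on probe A_51_P108334 (mean 0.50 ± 0.05, SD, n = 4, adjusted p = 0.000149 in limma) and -0.06 on its other probe, A_52_P105040. That probe was called lower in the deposited signals (-0.27, adjusted p = 0.0264 in limma), with the intensity trend removed (-0.24) and with both trends removed (-0.19), while A_51_P108334 was called higher in each of them, so the probes of Slc25a4 then passed in opposite directions. Both rising probes were over 16 in mean log2 intensity. Vdac1, the pore of the outer membrane, had 0.28 ± 0.17 on A_52_P909310 (SD, n = 4, adjusted p = 0.00956 in limma) and 0.12 on its other probe, which did not pass. The call of A_52_P909310 ended in the deposited signals (0.05, adjusted p = 0.605), with the intensity trend removed (0.12, adjusted p = 0.113) and with both trends removed (0.07, adjusted p = 0.396).

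Of the regulators of respiratory genes, 6 of 26 probes rose and 2 fell. Ppargc1a, a coactivator of mitochondrial biogenesis also known as PGC-1alpha, had the largest ratio among them on probe A_51_P279038, with 0.56, 0.34, 0.34 and 0.71 (mean 0.49 ± 0.18, SD, n = 4, adjusted p = 0.00137 in limma). Its mean log2 intensity was 12.5, outside the bright range, and its ratio was 0.56 in the deposited signals and 0.54 with the intensity trend removed. The second Ppargc1a probe had 0.09, 0.04, 0.05 and 0.06 and did not pass (adjusted p = 0.207 in limma), and the difference between the probes was not tested. The regulator probes that fell were of Pprc1 (-0.19) and Esrra (-0.17), and the other Esrra probe stood at -0.12 and did not pass. The Pprc1 call (adjusted p = 0.0447 in limma) ended in the deposited signals, with the intensity trend removed and with both trends removed. The Esrra call held in each of them. Neither Nrf1 probe passed limma after adjustment (-0.14 and 0.08). Gabpa rose on A_52_P126238 (0.11, adjusted p = 0.0484 in limma) and Yy1 on A_52_P325819 (0.12, adjusted p = 0.0318 in limma). Both calls ended in the deposited signals and with both trends removed, and the other probes of Gabpa and Yy1 did not pass. Of the assembly factors of complex IV 1 of 14 probes rose and 2 fell. Of those of complex III none of 6 passed limma, with 1 at an unadjusted p of 0.05. Of the assembly factors and the inhibitor of ATP synthase together, 1 of 8 probes rose and 3 fell. The rising probe was of the inhibitor gene Atpif1 (0.28, adjusted p = 0.00338 in limma), with a mean log2 intensity of 15.8. Its call held with the intensity trend removed (0.12) and ended in the deposited signals (0.13) and with both trends removed (0.11). The other Atpif1 probe stood at -0.04 and did not pass. Cox10, an enzyme in the making of haem a for complex IV, fell by 0.27 ± 0.05 (SD, n = 4, adjusted p = 0.0016 in limma), on arrays at -0.26, -0.27, -0.21 and -0.32. Of the 6 probes of other subunits and of the haem lyase gene Hccs, which the name rule did not take, 3 rose (Ndufa4 by 0.23, Usmg5 by 0.16 and Cyct by 0.12) and none fell in limma, with 4 and 0 at an unadjusted p of 0.05. These 3 calls ended with both trends removed, and only Cyct kept its call in the deposited signals, where Ndufa4 stood at 0.00 and Usmg5 at 0.07. The Cyct probe lay at the dim end of the array, with a mean log2 intensity of 6.6. Its ratio moved from 0.12 to 0.84 in the deposited signals.

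**Figure D5:**
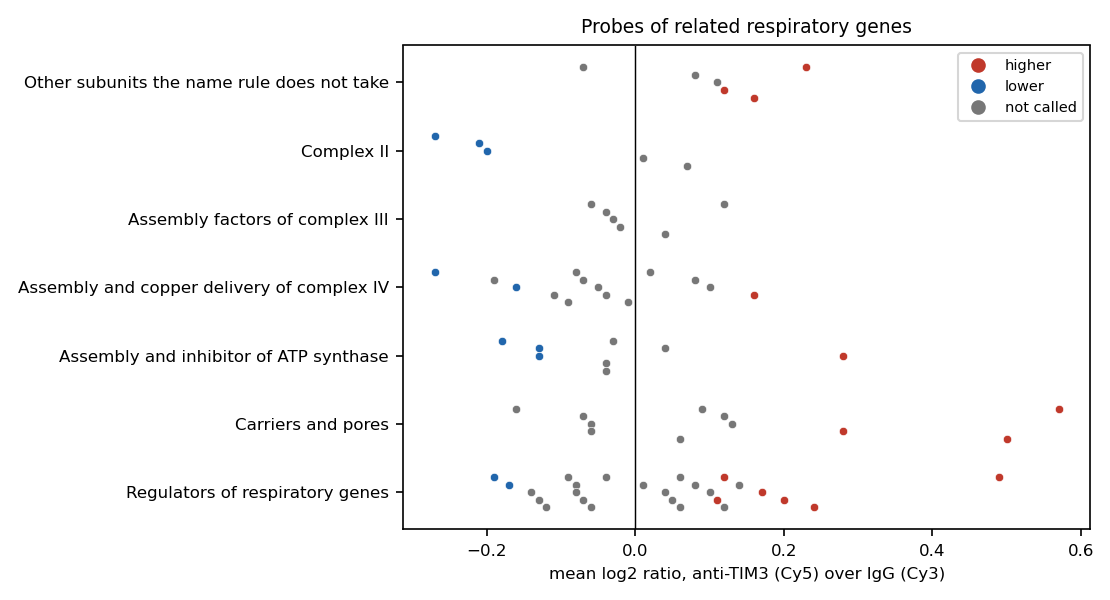
Mean log2 ratio over 4 arrays for each of the 76 tested probes of related genes, by list, with red for probes that rose, blue for those that fell and grey for those that did not pass limma at an adjusted p of 0.05. Complex II holds 3 of its 5 probes left of 0 in blue, and the carriers hold 3 of 11 right of 0 in red.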

How the data were processed

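Per the file headers, version 9.5.1.1 of Agilent Feature Extraction wrote the deposited scanner files, with the intensity of each spot per channel (version 9 per the submitters' processing notes). A deposited table of log10 ratios, Cy5 over Cy3, equals the ratio column of those files at every spot (largest difference 0). Per the file headers these ratios come from signals that the authors' software corrected for background and normalised between dyes, and each column's median was 0. All 4 arrays were on 1 slide, so slide was not a term. Each scanner file held 45018 spots.

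Mean signals were corrected with the median local background (normexp, offset 50) and normalised within arrays by loess, giving no weight to control and outlier spots, and outliers were then dropped. The log2 ratio of each probe was set against 0 by limma (version 3.58.1, R 4.3.3; lmFit and eBayes, two-sided), and p-values were adjusted by Benjamini-Hochberg across the 26545 probes, with calls at 0.05. The step was tested on simulated data with independent ratios and no intensity trend or dye effect, so it cannot show how these alter the calls. No member spot was saturated, and the number of arrays limits the precision. The deposited signals are the authors' processed intensity, turned to log2. The channels of an array share a passage, so the ratio pairs them.

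Every member gene is named. Values on each array are given for the 8 highest and 8 lowest called probes of 1 sign, for genes called both ways, for Cycs and Cyc1 and for isoform pairs, and of related genes for up to 4 called probes per direction; the second probes of these genes and the Atp5g1 and Atp5g2 probes were added after their values were seen. Members and lists were chosen with earlier results of these data known. Coordinates of probes are those of the mm7 build in the files. RefSeq lists pseudogenes named after 8 member genes, among them Uqcrh and Cycs, and cross-hybridisation was not tested.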

Additional observations from a re-analysis of the deposited data

Results flagged for a closer look

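Among 55 member probes measured on all 4 arrays, 3 had 1 array far from the other 3; chance marks about 1 in 20 such groups. For Atp5e probe A_51_P362054, array 2 had a log2 ratio of 0.09, below the 0.28 to 0.31 of the others. For Cycs probe A_52_P82247, array 1 had 0.19, above 0.03 to 0.06, and for Cycs probe A_51_P261671 array 1 had 0.17, above 0.03 to 0.05. The 2 Cycs probes share 40 bases.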

How the results depend on the processing

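Of the member probes, 19 rose and 2 fell, and 24 related probes passed in either direction. Without the pairing of channels on an array (no replicate block), limma called 0 members higher, 0 lower and 0 related probes, with 1, 0 and 0 at an unadjusted p under 0.05, since brightness differences between arrays then count as spread. Each array only centred on its median gave 0, 0 and 0, with 27, 0 and 12 at an unadjusted p under 0.05, and moved the median ratio of all probes to 0.15 and of members to 0.59. With each array's remaining median shift removed, a setting chosen after seeing the data, the counts were 7, 0 and 2. The deposited signals gave 6 higher members and 14 related probes, a minimum change of 1.2-fold 1, 0 and 2, and the intensity trend removed 12 and 4 members. Members called lower numbered 1 with an offset of 10, 1 with no filter, 4 with both channels required on all arrays and 5 with array weights. Leaving out each array in turn gave 15 to 18 higher, 1 lower, and 15 to 22 related probes, the fewest without array 4.

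Signs turned for the falling Atp5b probes under median centring (A_52_P553841 0.08, A_51_P207636 0.47, and 0.29 with the shift removed), as for Sdha A_52_P109503 (0.09), Sdhc (0.18) and Sdhd (0.40, and 0.22 with the shift removed). They also turned for Cox4i1 with the intensity trend removed (-0.16, adjusted p = 0.0365 in limma), for Cox5b (-0.01), Atp5h (-0.05 and -0.03) and Cox5a (-0.02) in the deposited signals, for Cox5a with the intensity trend (-0.04) or both trends (-0.06) removed, and for Atp5h A_51_P264186, at 0.00 with both trends removed. The cause was not tested. The other settings run kept the direction of every called member probe.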
